A study of Mus musculus with 6 samples.

Results

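Broad H3K4me3 domains found in both libraries were examined in CD8+ tumour-infiltrating lymphocytes, with and without Atg5. Regions of the knockout list on chromosomes 1 to 19 and X were joined over gaps of up to 1000 bp. A domain was kept if it was at least 6000 bp wide and if wild-type regions covered at least 80% of its bp. This rule gave 428 kept domains among 1177 knockout domains of at least 6000 bp (36.4%) and among 42090 knockout domains of any width. Across all widths, 61.6% of knockout domains had wild-type cover of at least 80%. The members were thus chosen by their width in the knockout list and their cover by the wild-type list, and both values are given as description.

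The knockout library came from C57BL/6 mice with a Cre-mediated deletion of Atg5, a gene whose product is needed to build autophagosomes. The wild-type library came from C57BL/6 mice without that deletion. Both hosts carried E0771 tumours, a mouse mammary tumour line written as e0771 in the labels, and H3K4me3 was measured by native chromatin immunoprecipitation and sequencing after micrococcal nuclease digestion. The labels do not give the Cre driver, the age of the mice, or whether animals were pooled, and each genotype had 1 library, so no difference between the genotypes was tested.

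H3K4me3 is written by the SET1 and MLL methyltransferases at the starts of active genes, mostly over CpG-rich sequence. At most genes it covers the first nucleosomes after the start, but at a minority it spreads far into the gene. Such broad domains are known from other cell types for marking genes of cell identity, growth control and tumour suppression.

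The 2 lists were of similar size on these chromosomes. The knockout list held 46547 regions over 73.1 Mb with a median width of 1130 bp, and the wild-type list held 48525 over 71.2 Mb with a median width of 1103 bp. Neither list states a sequencing depth. At most T cell genes the wild-type list had no domain, although the label gives CD8+ tumour-infiltrating lymphocytes for both libraries. All 20 genes of a T cell identity list had their start in a knockout domain, against 5 of 20 in a wild-type domain. The summed width of the domains at these starts was 225507 bp for the knockout and 16620 bp for the wild type, counting a domain once for each gene. Cd8a, Cd8b1, Cd3e, Cd3d, Cd3g and Lck were among the 15 genes with no wild-type domain at the start. Other lymphoid and leukocyte lists also had smaller sums in the wild type. The sums were 218606 bp (knockout) and 75269 bp (wild type) for pan-leukocyte genes and 66982 and 24469 bp for CD8 effector genes. They were 18504 and 5416 bp for NK cell genes and 8863 and 725 bp for B cell genes. Eomes, Gzmb and Prf1 are counted in both the NK cell and the CD8 effector list. Cd244a of the NK cell list was wider in the wild type, with 3534 bp (knockout) and 4185 bp (wild type). The sums for the 12 CD4 and regulatory T cell genes were 23263 bp (knockout) and 18690 bp (wild type). Cd4 itself went against its list, with no knockout domain at the start and 1913 bp in the wild-type list. Of 20 myeloid genes, 14 had a knockout domain and 13 a wild-type domain at the start, with summed widths of 47898 bp (knockout) and 51302 bp (wild type). Of 18 fibroblast and endothelial genes, 8 had a knockout domain and 9 a wild-type domain, with sums of 30848 bp (knockout) and 41964 bp (wild type). Members of these lists differed. Col1a1, Fap and Csf1r had no domain at the start in either list, whereas the collagen gene Col3a1 had 3027 bp in the knockout list and 7399 bp in the wild-type list. Pdgfrb had 3621 bp (knockout) and 5594 bp (wild type), Pecam1 2202 and 4388 bp, Cebpb 4773 and 6942 bp, and Tyrobp 7278 and 9918 bp in the same order. Twist1 (4976 and 4301 bp) and Spi1 (3919 and 2888 bp) were wider in the knockout list. Of 15 epithelial and mammary tumour genes, 8 had a knockout domain and 6 a wild-type domain, with sums of 21129 bp (knockout) and 19432 bp (wild type), and Epcam had none in either list. Fewer cells of a type and less of the mark per cell cannot be told apart in such samples, and neither can be told apart from the genotype. The part of the cell mixture in the kept domains was not tested.

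The promoters of 4 genes at kept domains are printed to show the sequence that lies at their starts, and that of Cd8a is printed as an example from the other broad domains. Each runs from 250 bases before to 50 bases after the RefSeq start (GRCm38.p6), 5′ to 3′ on the strand of the gene, and capitals mark CG dinucleotides. Irf2bpl encodes a nuclear member of the IRF2 binding protein family, Cdkn1b the cell cycle inhibitor p27, Junb an AP-1 transcription factor, Gapdh a glycolytic enzyme and Cd8a a chain of the CD8 co-receptor.
Irf2bpl, chr12:86884765-86885064, minus strand: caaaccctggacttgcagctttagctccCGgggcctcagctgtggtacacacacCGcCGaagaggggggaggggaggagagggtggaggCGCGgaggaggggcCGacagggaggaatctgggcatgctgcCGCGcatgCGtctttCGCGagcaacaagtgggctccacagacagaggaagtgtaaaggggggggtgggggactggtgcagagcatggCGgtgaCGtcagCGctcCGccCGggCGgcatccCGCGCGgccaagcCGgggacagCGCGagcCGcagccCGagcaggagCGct
Cdkn1b, chr6:134920151-134920450, plus strand: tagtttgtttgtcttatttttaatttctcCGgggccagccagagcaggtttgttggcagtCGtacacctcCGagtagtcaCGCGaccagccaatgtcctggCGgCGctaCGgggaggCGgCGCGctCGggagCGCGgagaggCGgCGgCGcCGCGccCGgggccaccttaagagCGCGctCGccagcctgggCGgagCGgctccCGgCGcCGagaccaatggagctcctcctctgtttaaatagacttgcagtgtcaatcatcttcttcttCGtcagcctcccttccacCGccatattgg
Junb, chr8:84978699-84978998, minus strand: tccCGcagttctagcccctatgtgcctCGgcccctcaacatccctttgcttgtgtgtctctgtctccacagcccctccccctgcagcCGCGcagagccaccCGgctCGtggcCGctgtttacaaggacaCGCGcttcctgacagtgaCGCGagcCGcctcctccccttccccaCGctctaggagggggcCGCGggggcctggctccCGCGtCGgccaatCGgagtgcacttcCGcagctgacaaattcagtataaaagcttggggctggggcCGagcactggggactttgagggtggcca
Gapdh, chr6:125165724-125166023, minus strand: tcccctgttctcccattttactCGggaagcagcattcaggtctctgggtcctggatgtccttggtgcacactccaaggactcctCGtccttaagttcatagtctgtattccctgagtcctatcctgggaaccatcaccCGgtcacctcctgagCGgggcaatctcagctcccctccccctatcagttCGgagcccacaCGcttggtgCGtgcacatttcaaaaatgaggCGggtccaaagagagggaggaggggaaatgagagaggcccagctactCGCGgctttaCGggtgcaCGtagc
Cd8a, chr6:71373177-71373476, plus strand: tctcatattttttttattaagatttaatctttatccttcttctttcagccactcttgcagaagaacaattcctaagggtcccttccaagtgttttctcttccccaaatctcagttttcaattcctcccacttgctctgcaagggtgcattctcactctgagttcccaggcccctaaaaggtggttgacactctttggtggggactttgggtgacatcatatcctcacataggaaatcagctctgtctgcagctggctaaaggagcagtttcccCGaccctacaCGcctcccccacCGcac
The Irf2bpl window held 26 CG dinucleotides, Cdkn1b 30, Junb 21 and Gapdh 12, whereas the Cd8a window held 3. Cd8a lies far below the median of the other broad domains, which was 20 per window, against 22.5 at kept domains. Kept genes with as few also exist, such as Col6a3 with 3 and Slfn2 with 2.

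Mature miRNAs of RefSeq whose genes lay in kept domains are printed with the seed, bases 2 to 8, in capitals. They were chosen because their domains hold well-studied regulators of growth and activation.
mmu-miR-21a-5p: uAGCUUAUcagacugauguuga
mmu-miR-125b-5p: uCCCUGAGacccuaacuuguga
mmu-let-7i-5p: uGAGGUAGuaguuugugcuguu
mmu-miR-132-3p: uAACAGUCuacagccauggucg
mmu-miR-212-3p: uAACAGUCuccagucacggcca
The last of these, miR-212-3p, has the same seed as miR-132-3p, AACAGUC, and the genes of both lie in 1 kept domain.

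The kept domains covered 3.48 Mb and had a median width of 7210 bp (quartiles 6501 and 8694 bp, range 6000 to 31916 bp). The other 749 broad domains were wider, with a median of 7893 bp and a maximum of 56761 bp. A width of at least 10000 bp was reached by 61 kept domains (14.3%, exact 95% interval 11.1 to 17.9%) and by 209 of the others (27.9%). All intervals cover counting error only, and domains of 1 library are not replicates.

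The share of domains that were covered in the wild type was lower at greater width among the broad ones. It was 42.5% of the 426 domains between 6000 and 7000 bp wide and 42.5% of the 240 between 7000 and 8000 bp. It was 34.9% of 241 between 8000 and 10000 bp, 26.0% of 192 between 10000 and 15000 bp, and 14.1% of the 78 domains of 15000 bp or more (exact 95% interval 7.26 to 23.8%). Between 2000 and 4000 bp, in contrast, 73.7% of 9775 domains had cover of at least 80%. Chromosome 13 had the highest share of broad domains that were kept, 24 of 47 (51.1%), and chromosome X the lowest, 2 of 17 (11.8%). Chromosome 11 held the most kept domains, 51 of 133.

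**Figure D1:**
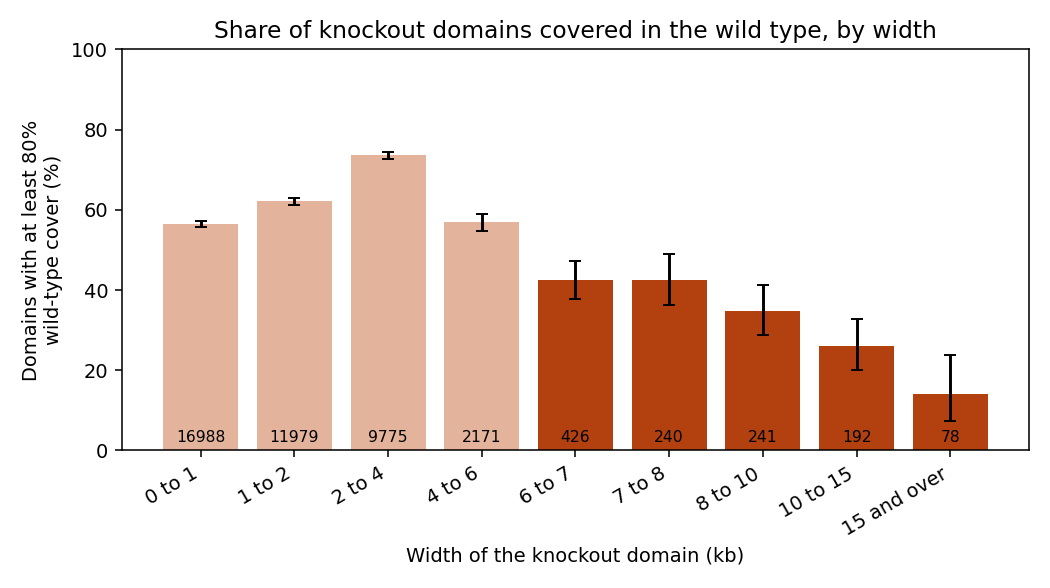
Bars give the percent of knockout domains with at least 80% wild-type cover (y axis) by width of the knockout domain in kb (x axis), with exact 95% binomial intervals and the number of domains at the foot of each bar. Dark bars are the broad domains, where the share was 42.5% at 6 to 7 kb and 14.1% at 15 kb and over.

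Within the kept domains, wild-type regions covered a median of 94.0% of the bp (quartiles 86.7 and 99.3%). Full cover was found at 89 domains (20.8%) and cover of at least 95% at 197, while 83 lay between 80 and 85%. The rule fixes most of this cover, and the following values of wild-type width and number describe the choice of members in the same way. The widest wild-type domain that met them had a median width of 7336 bp, and it reached at least 6000 bp at 382 of 428 (89.3%, exact 95% interval 85.9 to 92.0%). Among the other broad domains this was so for 116 of 749 (15.5%). The wild-type domain was wider than the knockout domain at 219 kept domains (51.2%), so neither library had the wider domain throughout. A single wild-type domain met the kept domain in 406 cases (94.9%), against 394 of the other broad domains (52.6%), some of which met none. A single knockout region, with no joining, made up 230 kept domains (53.7%) and 226 of the others (30.2%).

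The thresholds cut through a continuous range. Just above 80% cover lay the domains of Ggnbp2 and Znrf2 with 80.1% each, Ppp1r10 and Mrps18b with 80.2%, Cnbp with 80.2%, Tm6sf1 with 80.2%, and Klhl28 and Togaram1 with 80.2%. Just below it lay the domains of the histone genes H1f5 and H3c11 with 79.97%, Tnip1 with 79.9%, Ssbp3 with 79.9%, B4galt3 with 79.8% and Klf2 with 79.7%. Just above the width limit lay Plin2 with 6003 bp, Rab1a with 6012 bp, Arf1 with 6013 bp, Gapdh with 6019 bp and Klhl9 with 6022 bp. Just below it lay Ptma with 5998 bp, Phlpp1 with 5997 bp, Ppp1r15a with 5995 bp, Uhrf1bp1l with 5987 bp and Gtf2a1 with 5982 bp, all of them with over 80% wild-type cover.

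**Figure D2:**
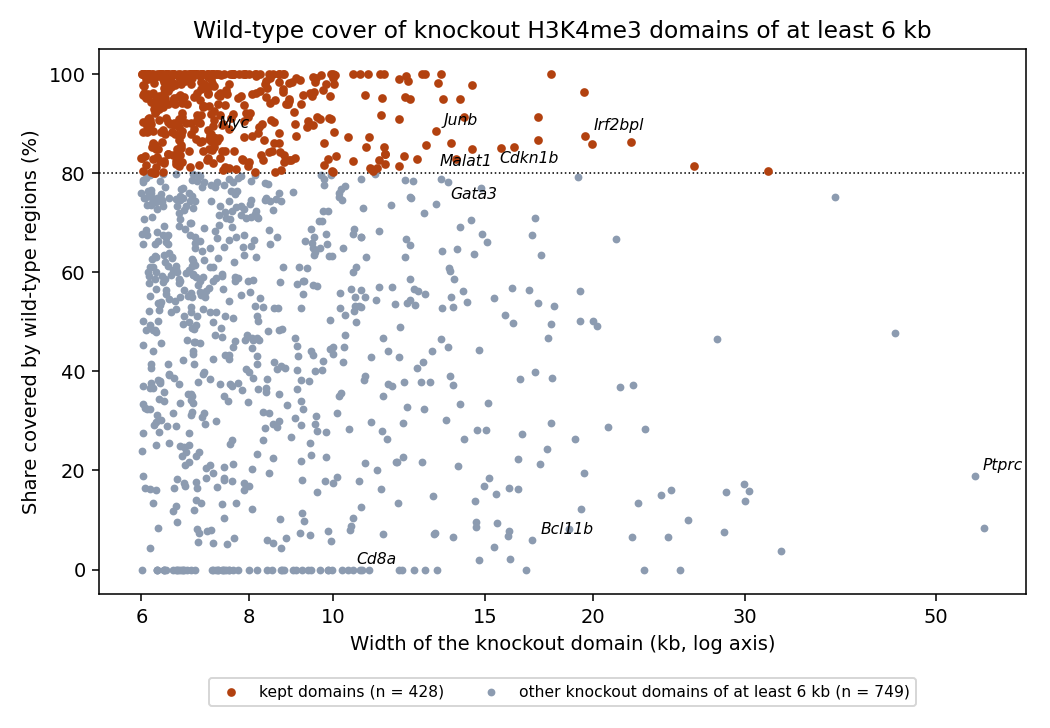
Each point is 1 knockout domain of at least 6 kb, by its width in kb on a log axis (x) and the percent of its bp under wild-type regions (y). The 428 kept domains lie on or above the dotted line at 80% and the other 749 below it, with Cd8a at 0% and Gata3 close to the line.

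The widest kept domain, chr7:73528402-73560317, held the start of Chd2, a chromatin remodelling enzyme. It was 31916 bp wide in the knockout and had 25704 bp under wild-type regions, and the widest wild-type domain there was 16170 bp. The Irf2bpl domain was 19612 bp wide with 17159 bp under wild-type regions, and the Cdkn1b domain was 17302 bp wide with 15011 bp covered. Both take in the whole gene body. The domain at Kif21b, a kinesin motor gene, was 16192 bp wide with 13805 bp covered, and that at Myh9, a non-muscle myosin heavy chain, was 15669 bp wide with 13332 bp covered. Nfib and Tfap2a, transcription factors of epithelial and mesenchymal development, had domains of 14509 bp with 12331 bp covered and of 14494 bp with 14166 bp covered. Other wide kept domains held no coding start. One of 19540 bp lay inside Plec, the gene of the cytolinker plectin, with 18827 bp covered, and one of 17300 bp lay inside Aopep, an aminopeptidase gene, with 15796 bp covered.

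The deposited fold at a summit is the authors' value of reads over background, and it was used here only to rank domains within a list. The highest fold within a kept domain had a median of 35.5 in the knockout list and 32.3 in the wild-type list. These medians lay at percentiles 89.2 and 90.4 of all regions of their own list. In the other broad domains the median was 28.5 in the knockout list (percentile 83.0) and 22.7 in the wild-type list (percentile 79.2). Of the kept domains, 3 lay below the median fold of the knockout list and 1 of 427 below that of the wild-type list. Of the other broad domains, this held for 11 of 749 in the knockout list and for 154 of 687 in the wild-type list. The wild-type values follow in part from the choice of members by wild-type cover. The domain of Lmna had no wild-type summit inside it and therefore no wild-type rank.

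The neighbouring genes Myc, which drives cell growth, and Pvt1, a long noncoding RNA beside it, headed the ranking. Among kept domains, Myc ranked 1 in the knockout list and 3 in the wild-type list, with a domain of 7218 bp, of which 6350 bp were covered in the wild type. Its fold of 104 was the highest of the whole knockout list, whereas the highest fold of the wild-type list, 86.3, lay outside the kept domains. Pvt1 ranked 2 in both lists, and its domain was 8058 bp wide with 7050 bp covered. Cdkn1b ranked 8 in the knockout list and 1 in the wild-type list. The nuclear noncoding RNA Malat1 ranked 3 in the knockout list and 5 in the wild-type list, with a domain of 13716 bp and 11812 bp covered.

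For other domains the ranks in the 2 lists lay further apart. Lsm8, an RNA-binding subunit of the spliceosome, ranked 4 in the knockout list and 137 in the wild-type list. Ppp1r15b, a phosphatase subunit that resets the integrated stress response, ranked 5 in the knockout list and 29 in the wild-type list, which is near the top of both. Tnfrsf1a, a receptor for TNF, ranked 270 in the knockout list and 6 in the wild-type list. Hif1a, the hypoxia-responsive transcription factor, ranked 106 in the knockout list and 7 in the wild-type list. Further genes were picked after their values were seen. Ranked far lower in the knockout list than in the wild-type list were Col6a3, a collagen chain (411 in the knockout list, 55 in the wild-type list), the homeobox gene Meis1 (367 and 78), the muscle filamin Flnc (313 and 70) and the galectin Lgals3 (284 and 70). Ranked higher in the knockout list were Slfn2, a lymphocyte Schlafen gene (131 in the knockout list, 359 in the wild-type list), Ggnbp2 (84 and 283), and Arf1, a GTPase of the Golgi (106 and 291). Across 427 kept domains with a summit in both lists, Spearman's rho of the fold values was 0.71, as a description of domains that share their libraries.

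**Figure D3:**
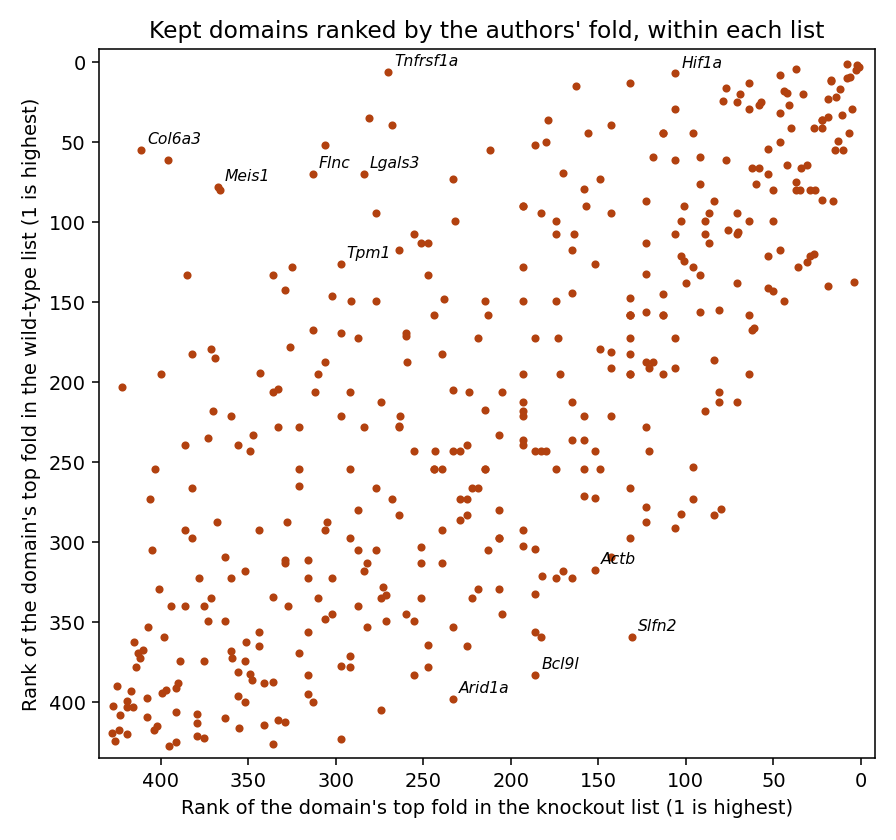
Each point is 1 kept domain, by the rank of its highest authors' fold among kept domains in the knockout list (x axis, rank 1 at the right) and in the wild-type list (y axis, rank 1 at the top). Points at the top left, such as Col6a3 and Meis1, ranked higher in the wild-type list, and points at the lower right, such as Slfn2, in the knockout list.

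The highest peak lay close to the same place in both lists at most kept domains, but not at all of them. The 2 top summits of a kept domain were a median of 157 bp apart, and 234 of 428 (54.7%) lay within 200 bp and 292 (68.2%) within 500 bp. At 51 (11.9%) they were over 2000 bp apart, with a maximum of 15820 bp at Chd2. In the other broad domains the median distance was 167 bp. Within 2000 bp on either side of a kept domain, wild-type regions covered a median of 294 bp, and 82.7% of kept domains had some such cover. The median was 0 bp beside the other broad domains, and 39.7% of those had any. Both measures of the flanks follow in part from the choice of members by wild-type cover.

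Kept domains lay mostly at protein-coding genes. A coding start was found in 351 of 428 (82.0%, exact 95% interval 78.0 to 85.5%), against 531 of 749 other broad domains (70.9%, 67.5 to 74.1%). More than 1 coding start was found in 68 kept domains (15.9%, 12.6 to 19.7%), against 57 of the others (7.61%, 5.82 to 9.75%). Over all 21627 protein-coding genes of the RefSeq table, 429 (1.98%) had a start in a kept domain and 582 (2.69%) in another broad domain, and the counts below are set beside these shares. The most coding starts were held by a histone cluster domain on chromosome 13 with 5 (H2ac8, H2bc8, H2bc7, H2ac7 and H3c4), and by a domain of Slc25a11, Rnf167, Pfn1 and Eno3 with 4. Domains with 3 included Ehbp1l1, Znrd2 and Fam89b, and Mrpl49, Fau and Znhit2. Genes named below whose kept domain held more than 1 coding start included Zfp36, Dusp2, Socs1, Brd2, Tubb5, Ddx5, Hnrnpa1, Ube2b, Rps2 and Tpi1. The width of such a domain cannot be assigned to 1 of its genes.

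Genes of the immediate early and rapid response list, whose products are made within minutes of a stimulus, had the largest count of the 22 gene lists. Of 30 genes, 12 had a start in a kept domain (40.0%, exact 95% interval 22.7 to 59.4%) and 4 in another broad domain. With starts of the promoter table only, 8 of the 30 were kept, since the rest of the 12 were placed by their gene boundaries. Zfp36, which destabilises cytokine mRNAs, shared its domain with another coding start. This domain was 13873 bp wide with 11500 bp covered in the wild type. That of Junb was 13157 bp wide with 11641 bp covered. The domain of the repressor Bhlhe40 was 11922 bp wide with 11804 bp covered, and that of the antiproliferative gene Btg1 was 11070 bp wide with 8942 bp covered. Myc, Fosl2, Atf3, Klf6, Ier2, Dusp2, Mafk and Zfp36l2 were the other members, of which Fosl2, Atf3, Klf6 and Mafk were fully covered. Jund, Klf2, Zfp36l1 and Nfkbia lay in other broad domains, with 65.6, 79.7, 73.7 and 78.3% covered.

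The cytokine feedback list had 5 of 20 genes in kept domains and 5 in other broad domains. Of the kept ones, Socs1, Socs3 and Tnfaip3 limit cytokine or NF-kappaB signals. Bcl6, a transcriptional repressor, had a domain of 11470 bp with 9776 bp covered in the wild type. Bcl3 had 9976 bp with 8023 bp covered, Socs3 had 9058 bp with 7935 bp covered, and Socs1 had 8718 bp with 7028 bp covered. Tnfaip3, the ubiquitin-editing enzyme A20, had 8278 bp with 7439 bp covered. The 5 in other broad domains were Pim1, Stat3, Stat5b, Jak1 and Traf1, with wild-type cover between 24.6% at Stat5b and 73.2% at Pim1.

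The tumour suppressor and cell cycle list had 3 of 20 genes in kept domains and 2 in other broad domains. Beside Cdkn1b these included Cdkn2c, the CDK inhibitor p18, with 7471 bp and all of it covered. Smad7 and Foxo1 lay in other broad domains. Of chromatin regulators, 5 of 26 lay in kept domains and 2 in others. Kdm6b, a demethylase of H3K27, had the widest, with 14169 bp and 12943 bp covered. Setd1b and Kmt2d, methyltransferases of H3K4 themselves, had 11410 bp with 10870 bp covered and 6327 bp with 5590 bp covered. The acetyl-lysine reader Brd2 had 9696 bp with 9681 bp covered, and Arid1a, a subunit of the BAF remodeller, had 8479 bp with 7687 bp covered.

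Genes of basic cell function were also present. The RNA processing list had 5 of 30 genes in kept domains and 4 in others, and the kept ones were Hnrnpc (9590 bp in the knockout, 8765 bp covered in the wild type), Ddx5, Srsf3, Hnrnpa1 and Hnrnpl. The ubiquitin and protein folding list had 4 of 20 in kept domains and 5 in others. The chaperone gene Hspa8 had 7175 bp with 6365 bp covered, the ubiquitin-conjugating enzyme gene Ube2b had 7011 bp with 6983 bp covered, and the polyubiquitin gene Ubb had 6129 bp with 5592 bp covered. Of 20 housekeeping genes, 3 lay in kept domains and 3 in others. The kept ones were Actb with 11491 bp and 9631 bp covered, Tubb5 with 8310 bp and 7200 bp covered, and Gapdh. Only Rps2 of 20 ribosomal protein genes had its start in a kept domain, and 18 had narrower domains.

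Of 20 glycolysis and glucose uptake genes, 5 lay in kept domains and none in another broad domain. Hif1a, counted with this list as a regulator of glycolytic genes, had 11029 bp with 8943 bp covered. Tpi1 had 10087 bp with 8432 bp covered, although the wild-type domain at its start was 3052 bp wide. The knockout domain of Tpi1 held more than 1 coding start, so it cannot be assigned to Tpi1 alone. Pkm, the enzyme of the final step of glycolysis, had 8657 bp, all of it covered. Eno1 had 7461 bp with 6019 bp covered, and Gapdh had 6019 bp, all covered. The Gapdh domain also held a start or gene boundary of Iffo1, so it cannot be assigned to Gapdh alone. The other 15 genes had narrower knockout domains. None of 31 autophagy genes had a start in a kept domain (exact 95% upper bound 11.2%), and 28 had narrower ones. The Atg5 start lay in a knockout domain of 2705 bp that was fully covered in the wild type. This domain is no check of the genotype, since the deleted stretch of Atg5 is not named in the labels.

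Lineage genes of T cells lay among the other broad domains. None of the 20 T cell identity genes had a start in a kept domain (exact 95% upper bound 16.8%), and 16 had one in another broad domain. Over the 20 genes, the median wild-type cover of the knockout domain was 7.17%, against 94.9% over all 12630 protein-coding genes with a knockout domain. Tcf7, a transcription factor of early and stem-like T cells, had 23962 bp with 3588 bp covered. Bcl11b had 17029 bp with 1008 bp covered, and the Cd8a domain of 10420 bp had 0 bp covered. Gata3 came closest to the threshold, with 13329 bp and 10503 bp covered (78.8%). Of 20 pan-leukocyte genes, 14 lay in other broad domains only. Runx1 alone had a start in a kept domain, of 7409 bp with 7084 bp covered, and another of its starts lay in a broad domain that was not kept. These differences stand beside the low wild-type marking of T cell genes given above, whose part in them was not tested.

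The effector, exhaustion and CD4 T cell lists had 1 kept gene each, too few to be set apart from the share of all coding genes. Id2, a helix-loop-helix inhibitor that acts in effector T cells, was the only 1 of 20 CD8 effector genes (5.0%, exact 95% interval 0.13 to 24.9%), with 9237 bp and 8852 bp covered. Nr4a3, a nuclear receptor induced by T cell receptor signals, was the only 1 of 18 inhibitory receptor and exhaustion genes (5.56%, 0.14 to 27.3%), with 7022 bp and 6663 bp covered. Zbtb7b, the factor of CD4 T cell commitment, was the only 1 of 12 genes of CD4 and regulatory T cells, with 9756 bp and 7972 bp covered, and none of the 12 was kept when only regions with a −log10 q of at least 5 were used. No B cell gene of 12 and no NK cell gene of 10 had a start in a kept domain.

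Single genes of other lineages were among the kept domains. The start of Tyrobp, an adaptor of myeloid and NK cell receptors, lay in a domain of 7278 bp with 6205 bp covered, together with Hcst and Nfkbid, so the domain cannot be assigned to 1 of the 3 genes. Pdgfra, a growth factor receptor of mesenchymal cells, had 7261 bp, and Sox9, a transcription factor of epithelial and cartilage progenitors, had 8119 bp, both fully covered. Dlx2, a homeobox gene of craniofacial and forebrain development, had 9960 bp, also fully covered. These 4 were the only members of the myeloid, fibroblast and endothelial, epithelial and mammary, and developmental lists, which hold 20, 18, 15 and 20 genes. With starts of the promoter table only, the myeloid and the epithelial list had 0 kept genes, since Tyrobp and Sox9 were placed by their gene boundaries. None of 20 tissue-restricted genes was kept.

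**Figure D4:**
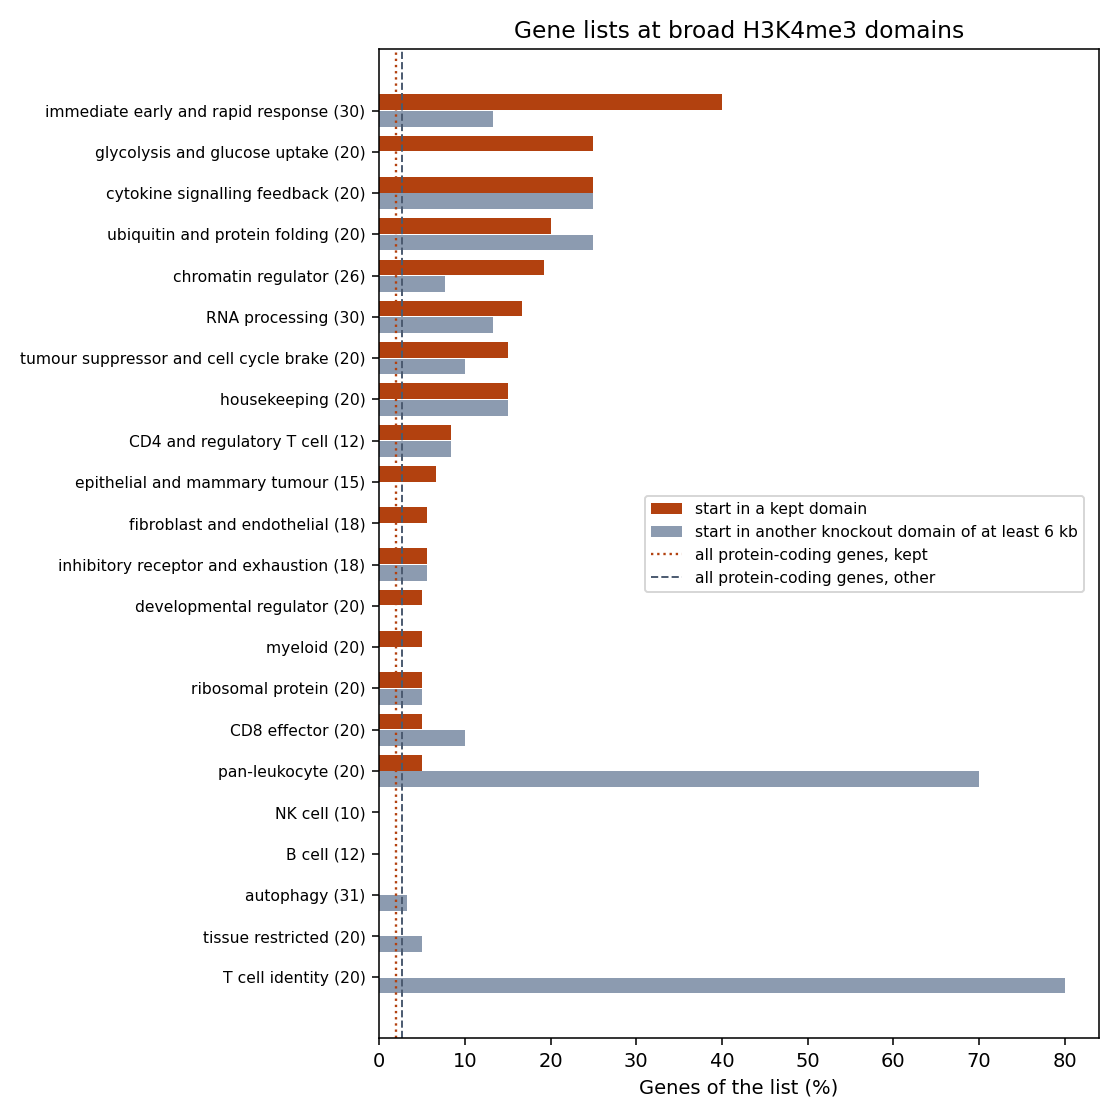
Bars give the percent of each gene list (number of genes in brackets) with a start in a kept domain (upper bar) or only in another knockout domain of at least 6 kb (lower bar), beside the share of all protein-coding genes (dotted and dashed lines). Immediate early genes stand at 40.0% in kept domains, whereas T cell identity genes stand at 0% in kept and 80% in other broad domains.

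Gene families among the members were looked up after the values were seen, so their counts describe this choice. Of 32 genes of the actin cytoskeleton, 17 had a start in a kept domain and 2, Capzb and Actr3, in another broad domain. Tpm1, a tropomyosin, had 13398 bp with 12740 bp covered, and Actg1, a cytoplasmic actin, had 10015 bp with 9947 bp covered. Actr2, a subunit of the ARP2/3 complex that branches actin filaments, had 8820 bp with 8283 bp covered. The filamin gene Flnc, the caldesmon gene Cald1 and the bundling protein gene Fscn1 had 6732, 7039 and 6460 bp, covered over 100, 100 and 99.7%.

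Of 10 phosphatases of MAP kinases, Dusp2, Dusp4, Dusp6 and Dusp7 were kept and none lay in another broad domain. Dusp4 had 12140 bp with 12097 bp covered, and Dusp6 had 9054 bp with 8987 bp covered. Of 15 BCL2 family genes, 4 were kept, namely the survival gene Bcl2l1 and the BH3-only death genes Bcl2l11, Bmf and Bbc3. Bcl2l11 had 6744 bp with 6658 bp covered. The survival genes Bcl2 and Mcl1 lay in other broad domains, with 52.8 and 79.3% covered. Of the 3 D-type cyclins, Ccnd1 (7222 bp, all covered) and Ccnd2 (8337 bp, 8174 bp covered) were kept, while Ccnd3, with 13178 bp and 9727 bp covered, was not. Of 9 TALE homeobox genes, 5 were kept, Meis1, Meis2 and Tgif1 among them, with knockout widths between 6433 bp at Meis2 and 9518 bp at Tgif1. Of the 3 IRF2 binding protein genes, Irf2bpl and Irf2bp2 were kept, and Irf2bp2 had 13227 bp with 13006 bp covered. Irf2bp1 had a narrower domain of 5435 bp with 4286 bp covered.

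Genes of small RNAs made by RNA polymerase III were held by a further group. Of 408 tRNA genes, 105 (25.7%) lay in 28 kept domains, and 1 lay in another broad domain. Of these 28 domains, 14 were fully covered in the wild type. The 18 of them without a coding start had a median width of 8027 bp and cover of at least 90.7%. A domain on chromosome 3, chr3:96485812-96503680, was 17869 bp wide, held 5 tRNA genes and was fully covered. It ranked 37 among kept domains in the knockout list and 4 in the wild-type list. On chromosome 19 a domain of 12284 bp held 8 tRNA genes, with 11660 bp covered. On chromosome 13, between 21 and 24 Mb, 11 kept domains lay in the tRNA and histone clusters, and each held a tRNA or a histone gene. The Aurkb domain on chromosome 11 combined 7 tRNA genes with the start of this mitotic kinase gene, over 11447 bp that were fully covered. Copies of tRNA and 5S genes are nearly identical, so reads from 1 copy can be placed at another, and the authors' handling of such reads is not given in the sources used here.

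The array of 5S ribosomal RNA genes on chromosome 8 gave the second and the fourth widest kept domains, of 26199 bp with 16 genes and 19942 bp with 11 genes. Their wild-type cover was 81.5 and 85.9%. Here joining mattered, since 15 and 9 knockout regions made up these domains and covered 68.4 and 77.9% of them. Of 63 rRNA genes of the table, 27 (42.9%) were in kept domains and 21 in another broad domain. Histone genes were held by 4 kept domains with 13 of 67 genes, among them the domain of H4c8, H2ac10 and H3c8 with 7359 bp and 7056 bp covered. Of 1003 snRNA genes, 15 (1.5%) lay in kept domains, and of 12697 lncRNA genes, 117 (0.921%). A lncRNA start or gene boundary was found in 110 kept domains (25.7%) and in 134 other broad domains (17.9%). Neat1, the RNA that scaffolds paraspeckles, had 12682 bp, all covered, and ranked 12 in the knockout list and 17 in the wild-type list.

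Of 1228 miRNA genes, 11 (0.896%) lay in 10 kept domains, so miRNA genes were not held more often than coding genes. The domain at Mir21a, chr11:86576446-86598612, was 22167 bp wide with 19127 bp covered, in 5 knockout and 5 wild-type regions. It holds the gene of miR-21a, printed above, which is induced in activated T cells and in many tumours. Mir132 and Mir212, with the shared seed printed above, lay in a domain of 8896 bp with 7350 bp covered. Mir125b-1 lay in a domain of 6397 bp that was fully covered, and Mirlet7i in one of 6247 bp with 5806 bp covered.

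Kept domains extended less far into the gene than the other broad domains. The position was measured in domains with exactly 1 coding start of known strand, which were 226 kept and 379 other domains. Kept domains ran a median of 5207 bp downstream and 1908 bp upstream of the start, against 6090 bp downstream and 1514 bp upstream in the others. More bp downstream than upstream were found in 182 of 226 kept domains (80.5%, exact 95% interval 74.8 to 85.5%) and in 338 of 379 others (89.2%, 85.6 to 92.1%). A distance of 10000 bp into the gene was reached by 2.21% of kept domains and 16.6% of the others. A distance of 2000 bp upstream was reached by 48.7% of kept domains and 38.8% of the others. The genes were shorter at kept domains, with a median of 26744 bp against 41504 bp, and 24 kept domains (10.6%) held a whole gene body, against 24 of the others (6.33%). Kept domains were also narrower, which limits how far they can reach.

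Examples show both layouts. The Irf2bpl domain ran 13269 bp upstream and 6342 bp downstream of the start, and the Junb domain 8612 bp upstream and 4544 bp downstream. Id2 likewise had 5540 bp upstream and 3696 bp downstream. The Klf6 domain, in contrast, ran 1034 bp upstream and 8970 bp downstream, where it covers the whole gene of 8905 bp, and the Myh9 domain ran 1408 bp upstream and 14260 bp downstream into a gene of 81591 bp. The top knockout summit lay downstream of the start in 156 of 226 kept domains (69.0%). Over all 226, its median position was 299 bp downstream, with quartiles of -301.5 and 1028 bp.

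**Figure D5:**
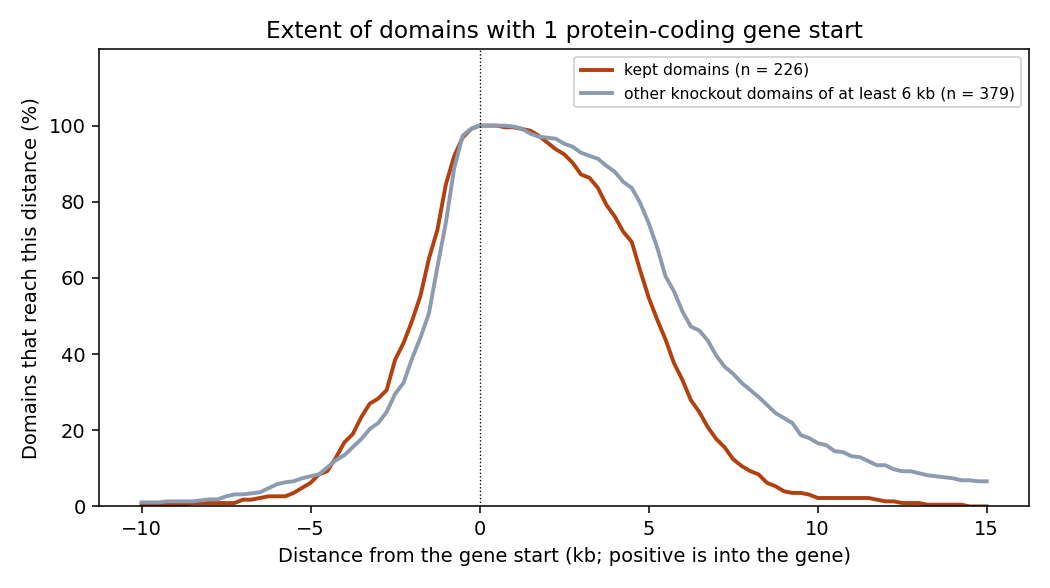
Lines give the percent of domains with 1 protein-coding start that reach each distance from the start, in kb, with positive values into the gene. At 5 kb into the gene the kept domains stand at 54.9% and the other broad domains at 74.4%.

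The starts in kept domains were rich in CG dinucleotides, and more so than those in the other broad domains. Promoter windows of 300 bases were available for 350 genes of kept domains and 461 of other broad domains. The median GC content was 64.0% at kept domains, 61.3% at the others and 56.7% over all 17273 genes with a window. The ratio of observed to expected CG dinucleotides had a median of 0.775 at kept domains and 0.712 at the others, against 0.592 over all genes. A ratio above 0.6 was found at 261 kept genes (74.6%) and at 269 others (58.4%), against 49.4% of all genes. Genes with a knockout domain narrower than 6000 bp stood at 75.6%, so the kept domains were close to ordinary marked promoters in this measure. Among the promoters printed above, the ratio was 0.764 for Irf2bpl, 1.04 for Cdkn1b, 0.666 for Junb and 0.501 for Gapdh, against 0.198 for Cd8a.

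Short motifs were searched on both strands of the same windows. GGGCGG, the GC box bound by SP factors, was found in 73.7% of kept windows, 57.9% of windows at other broad domains and 47.2% of all windows. CCGGAAG, an ETS core, was found in 12.9% of kept windows, 10.9% at other broad domains and 12.2% of all. TGANTCA, the AP-1 site, was found in 3.43% of kept windows, 6.07% at other broad domains and 7.13% of all. CCAAT was found in 39.4% of kept windows, 34.3% at other broad domains and 39.6% of all. TATAAA between 40 and 16 bases before the start was found in 2.29% of kept windows, 1.95% at other broad domains and 2.87% of all windows. Windows of genes with a knockout domain narrower than 6000 bp held the GC box in 66.65% and the ETS core in 19.4%. In those windows AP-1 stood at 4.70%, CCAAT at 39.3% and TATAAA at 1.13%. Kept windows thus held the ETS core less often than windows at narrower domains. The GC box can overlap CG dinucleotides, so its share and the CG content are not separate measures. A match is a run of letters and not a bound site.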

How the data were processed

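H3K4me3 peak lists of 2 libraries were used, 1 per genotype. The other 4 of the 6 samples of the series (H3K27me3 and input) were not analysed here. Regions were called with MACS2 on GRCm38 (mm10), per the submitters' processing notes. The sources used here do not name the aligner, the caller's settings, the handling of repeated sequence or any input control. The deposited fold is a ratio of reads at the summit to a background, and which library gave that background is not stated. In the knockout list the deposited −log10 q was at least 2.02, and in the wild-type list at least 2.00, while the deposited −log10 p and score were not used. The authors' lists give no depth, and the length of a called region depends on depth and threshold.

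Regions were joined over gaps of up to 1000 bp, and cover was counted in bp (Python 3.11.15 with SciPy 1.17.1, pandas 2.3.3, NumPy 2.4.6 and, for plots, Matplotlib 3.10.9). Joining and cover were tested on simulated intervals. Gene positions and promoters came from RefSeq (GRCm38.p6). Of 21627 protein-coding genes, 17273 had a start and strand in the promoter table. For the others, and for RNA genes without a start in that table, either gene boundary counted as a start. Motifs were counted in windows of 300 bases. No test between genotypes was possible with 1 library each. Intervals are exact (Clopper-Pearson) 95% intervals.

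The members and the 22 gene lists (437 genes) were chosen with earlier results of these data known. Genes are named if they lie at the 12 widest kept domains, the 6 with the highest fold in each list, the 6 on either side of each threshold or the 6 with most starts, or are among the 4 widest of a gene list. Atg5 is also named. Predicted genes were passed over, and a few genes under this rule are not reported here. Other genes named, the gene families and the miRNAs were chosen after their values were seen. Alternatives were other gaps, widths, covers and peak thresholds, the wild-type list as the start, and other rules for gene starts.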

Additional observations from a re-analysis of the deposited data

How the results depend on the processing

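The number and share of kept domains depend on the limits chosen. A minimum width of 5000 bp gave 839 kept domains and 8000 bp gave 145, and a minimum cover of 90% gave 274, against 428 in the report. The share of broad knockout domains that were kept was 40.31% with a gap of 500 bp and 25.03% with 2 kb. It was 43.05% at a width of 5000 bp, 28.38% at 8000 bp, 47.41% at 70% cover and 23.28% at 90%. With 20000 regions in each list it was 39.74%, and with wild-type regions joined before cover was counted, 41.89%. Starting from the wild-type list, 515 of 736 domains (69.97%) were kept. Of the 428 kept knockout domains, 331 (77.3%) overlapped a kept wild-type domain, and 333 of 515 (64.7%) did so the other way. The median width was 6026 bp at 5000 bp and 9696 bp at 8000 bp. The median cover was 95.36% with a gap of 500 bp, 91.4% with 2 kb, 89.81% at 70% cover, 98.0% at 90%, 95.33% with 20000 regions and 97.41% with joined wild-type regions. The share with a coding start was 77.24% at 8000 bp, 86.3% without domains of tRNA, rRNA, snRNA or histone genes, and 67.52% with starts of the promoter table only, where the share with more than 1 start was 12.38%. The causes were not tested. Gene list counts were repeated under fewer settings. These were starts within 1 kb of the domain, 70% cover, −log10 q of at least 5 and promoter table starts. Of 88 such counts, 79 stayed within 1.5 times, some of them at 0 throughout. With promoter table starts only, chromatin regulators went from 5 to 3 and ubiquitin and protein folding genes from 4 to 2. At 70% cover, RNA processing genes went from 5 to 8, housekeeping genes from 3 to 5 and pan-leukocyte genes from 1 to 2. The myeloid and epithelial counts were 0 with starts of the promoter table only, and the CD4 and regulatory T cell count was 0 at a −log10 q of at least 5. In these repeats of the list counts, T cell identity genes in kept domains numbered at most 1, Gata3 at 70% cover. Their number under the other gaps, widths and lists was not counted. Joined wild-type cover, the promoter table rule and the removal of RNA gene domains were added after the data were seen. No paired analysis was possible because each genotype has 1 library and the values come from no test. The depth behind each list is unknown, so a library with more reads cannot be told apart from one with wider marks.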
